A study of Mus musculus with 4 samples.

Results

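The integrated stress response is the program that cells run when translation initiation is slowed by phosphorylation of the factor eIF2. Its 8 target genes described here were Atf4, Ddit3, Ppp1r15a, Trib3, Ddit4, Sesn2, Asns and Chac1, found by symbol, 8 of the 31053 genes in each count matrix. The matrices held single-cell RNA-seq of whole brains from 4 male C57BL/6J mice at postnatal day 90, 1 library an animal. All 4 brains were perfused, freed of most meninges, digested with enzymes under warming and cleared of debris, with no cell sort. In 2 animals the perfusion, dissection and digestion solutions carried an inhibitor cocktail, and in the other 2 they did not. The cocktail held actinomycin D and triptolide, which block transcription, at every step and anisomycin, which blocks translation, from dissection on. The comparison asks which transcripts differ in cells that could still transcribe and translate during dissociation.

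As background, the eIF2 kinases GCN2, PERK, PKR and HRI sense amino acid shortage, misfolded protein in the endoplasmic reticulum, double-stranded RNA and haem shortage or mitochondrial stress. Phosphorylated eIF2 slows general translation but favours translation of Atf4 mRNA, so ATF4 activity can rise with no change of its transcript. ATF4 then drives genes of amino acid supply, mTORC1 restraint and feedback. Several of these genes also answer to other signals: Ddit4 to hypoxia and glucocorticoids, and Ppp1r15a to growth arrest and DNA damage.

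By the annotation of the mm10 (GRCm38) build, Atf4 (ENSMUSG00000042406) lies at chr15:80255184-80257541 on the plus strand, Ddit3 (ENSMUSG00000025408) at chr10:127290774-127296288 on the plus strand, and Ddit4 (ENSMUSG00000020108) at chr10:59949669-59951834 on the minus strand. Ppp1r15a (ENSMUSG00000040435) lies at chr7:45522916-45526268, Trib3 (ENSMUSG00000032715) at chr2:152337422-152344032, Asns (ENSMUSG00000029752) at chr6:7675169-7693254 and Sesn2 (ENSMUSG00000028893) at chr4:132492032-132510501, all on the minus strand. Chac1 (ENSMUSG00000027313) lies at chr2:119351229-119354381 on the plus strand. The Ddit3 gene shares 2925 bases on its own strand with a second gene model that the matrices list as AC144852.1 with 0 unique molecular identifiers (UMIs, counted transcript molecules), so the Ddit3 counts carry the uncertainty of reads that fit both. Sesn2 shares 6089 bases on its own strand with Gm12981, which had 6 UMIs over all barcodes, so the same uncertainty applies to the Sesn2 counts.

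The promoters show which members carry, close to their start sites, the letters that ATF4 is known to bind. RefSeq windows on GRCm38.p6, from 250 bases before to 50 bases after each start, were searched on both strands for the ATF4-C/EBP composite element, TGATGNAA, and the cAMP response element, TGACGTCA. The composite element was found in 3 of the 8 member windows and in 3.97% of all 32851 windows, and the cAMP response element in 1 of 8 and in 1.79%. The 4 matches are printed with their flanks, 30 bases each on the gene's own strand, with the match in capitals.
Trib3, chr2:152344028-152344057, minus strand: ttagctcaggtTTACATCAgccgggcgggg
Asns, chr6:7693214-7693243, minus strand: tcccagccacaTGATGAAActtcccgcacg
Chac1, chr2:119351038-119351067, plus strand: cttccctgccgTTGCATCActcctgccagg
Ppp1r15a, chr7:45526262-45526291, minus strand: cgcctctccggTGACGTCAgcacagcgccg
Trib3 and Chac1 carried the composite element on the opposite strand and Asns on its own, and the Ppp1r15a match was the cAMP response element. No match lay in the windows of Atf4, Ddit3, Ddit4 or Sesn2, which says nothing of sites elsewhere.

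The 4 libraries held 12487 cell barcodes, and 9861 cells with 4528934 to 6078759 UMIs a library were kept, at a median of 1440 to 1686 UMIs a cell. Libraries shared 67 of the barcodes as deposited, 44 of them among the kept cells. Clustering gave 15 named cell classes, each called "-like" from its markers, and 9 of them had enough cells in every animal to test. Each of those 9 held UMIs of all 10 of its own markers in all 4 animals. This is no independent check of the names, because the same markers named the clusters. Microglia-like sums, for example, also held UMIs of all 10 astrocyte, oligodendrocyte, endothelial and neuron markers in every animal. Olfactory ensheathing-like cells came from replicate 1 of each group only, and 346 cells in 4 clusters stayed unnamed. The 6 erythrocyte markers took 1.44% and 2.01% of all UMIs without and 0.364% and 0.558% with inhibitors. Levels are given as CPM, the share of a gene in the UMIs of the same class and animal, times 1000000. Because only the 3′ end of a transcript was counted, CPM values are compared between classes and groups and not between genes. For sums over all cells, fewer cells of a type and less RNA per cell cannot be told apart.

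Atf4, the transcription factor at the centre of the response, was detected in all 9 tested classes. Its level over the 4 animals was 111 ± 31.1 CPM (SD, n = 4) in neuron-like, 91.9 ± 9.04 in endothelial-like, 90.9 ± 6.01 in microglia-like and 64.9 ± 2.85 in astrocyte-like cells. It was 51.0 CPM in oligodendrocyte-like, 42.1 in choroid plexus-like and 17.5 ± 4.72 in ependymal-like cells, the lowest of the order. The ranges of all 8 pairs of neighbouring classes in this order overlapped, and the neuron-like mean rested on 61 UMIs between 68.4 and 139.6 CPM. Class against class is a description here, with no test, because clustering made the classes.

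Ddit3, which encodes the pro-apoptotic factor CHOP, stood at 70.3 ± 17.7 CPM in oligodendrocyte-like cells, 56.6 ± 36.0 in neuron-like, 52.7 ± 3.98 in microglia-like, 42.0 in astrocyte-like, 30.03 in endothelial-like and 14.1 in ependymal-like cells (n = 4). Of its 8 neighbouring pairs 7 overlapped, all but endothelial-like over ependymal-like cells. Neuron-like cells took the top place when cells over 10% mitochondrial UMIs were left out.

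Ddit4 and Sesn2 both encode inhibitors of mTORC1, the kinase complex that drives growth. Ddit4 was 231 ± 56.6 CPM in endothelial-like, 147 ± 17.6 in oligodendrocyte-like, 143 ± 10.4 in astrocyte-like and 124 ± 39.3 in mural-like cells (n = 4). It was 47.1 ± 13.2 CPM in microglia-like, 40.3 in neuron-like, 39.9 in ependymal-like, 21.2 in macrophage/monocyte-like and 20.4 in choroid plexus-like cells. The only gap between neighbours lay between mural-like and microglia-like cells. Endothelial-like cells held 36.0% of the Ddit4 UMIs and 17.7% of all UMIs. Sesn2 was sparse, with 9.30 ± 5.01 CPM in astrocyte-like, 6.90 in microglia-like and 1.57 in oligodendrocyte-like cells, and all its neighbours overlapped. Neuron-like cells, with 3 Sesn2 UMIs, took its top place with the 10% mitochondrial limit and with doublets kept.

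Ppp1r15a encodes GADD34, the phosphatase subunit that reverses eIF2 phosphorylation. It was 45.4 ± 15.4 CPM in ependymal-like and 32.6 in mural-like cells, 23.6 in microglia-like, 23.2 in choroid plexus-like and 20.3 in endothelial-like cells, and 13.5 in astrocyte-like cells (n = 4). The one gap between neighbours lay between endothelial-like and astrocyte-like cells. Oligodendrocyte-like cells had 9.54 CPM, and neuron-like cells had 6.21 CPM from 4 UMIs. Ependymal-like cells thus held the top place for Ppp1r15a and the last for both Atf4 and Ddit3.

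Asns, which makes asparagine, was concentrated in neuron-like and endothelial-like cells. The neuron-like level was 43.4 ± 15.1 CPM (n = 4), 7.66 times the mean over all cells, from 22 UMIs. Endothelial-like cells had 15.8 ± 6.01 CPM and 56 UMIs, 47.5% of all Asns UMIs. Astrocyte-like cells had 1.38 CPM and microglia-like cells 1.28 CPM, and the neuron-like and endothelial-like ranges did not overlap.

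Trib3, a pseudokinase that restrains ATF4 and AKT, had 28 of its 50 UMIs in endothelial-like cells, at 7.14 ± 2.57 CPM (n = 4). The level was 7.51 ± 3.31 CPM in mural-like cells from 5 UMIs and 8.05 ± 6.23 CPM, the top of the order, in neuron-like cells from 4 UMIs, and these ranges overlapped. Astrocyte-like cells had 0 UMIs, which allows up to 3.07 to 4.93 CPM an animal at 3 UMIs, and microglia-like cells had 1 UMI. Chac1, a glutathione-degrading enzyme, had 16 UMIs over all kept cells, 4 of them in neuron-like cells and 2 each in endothelial-like and mural-like cells. It had 0 in microglia-like cells, where 3 UMIs would be 2.38 to 2.99 CPM an animal. These limits cover counting error only.

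**Figure D1:**
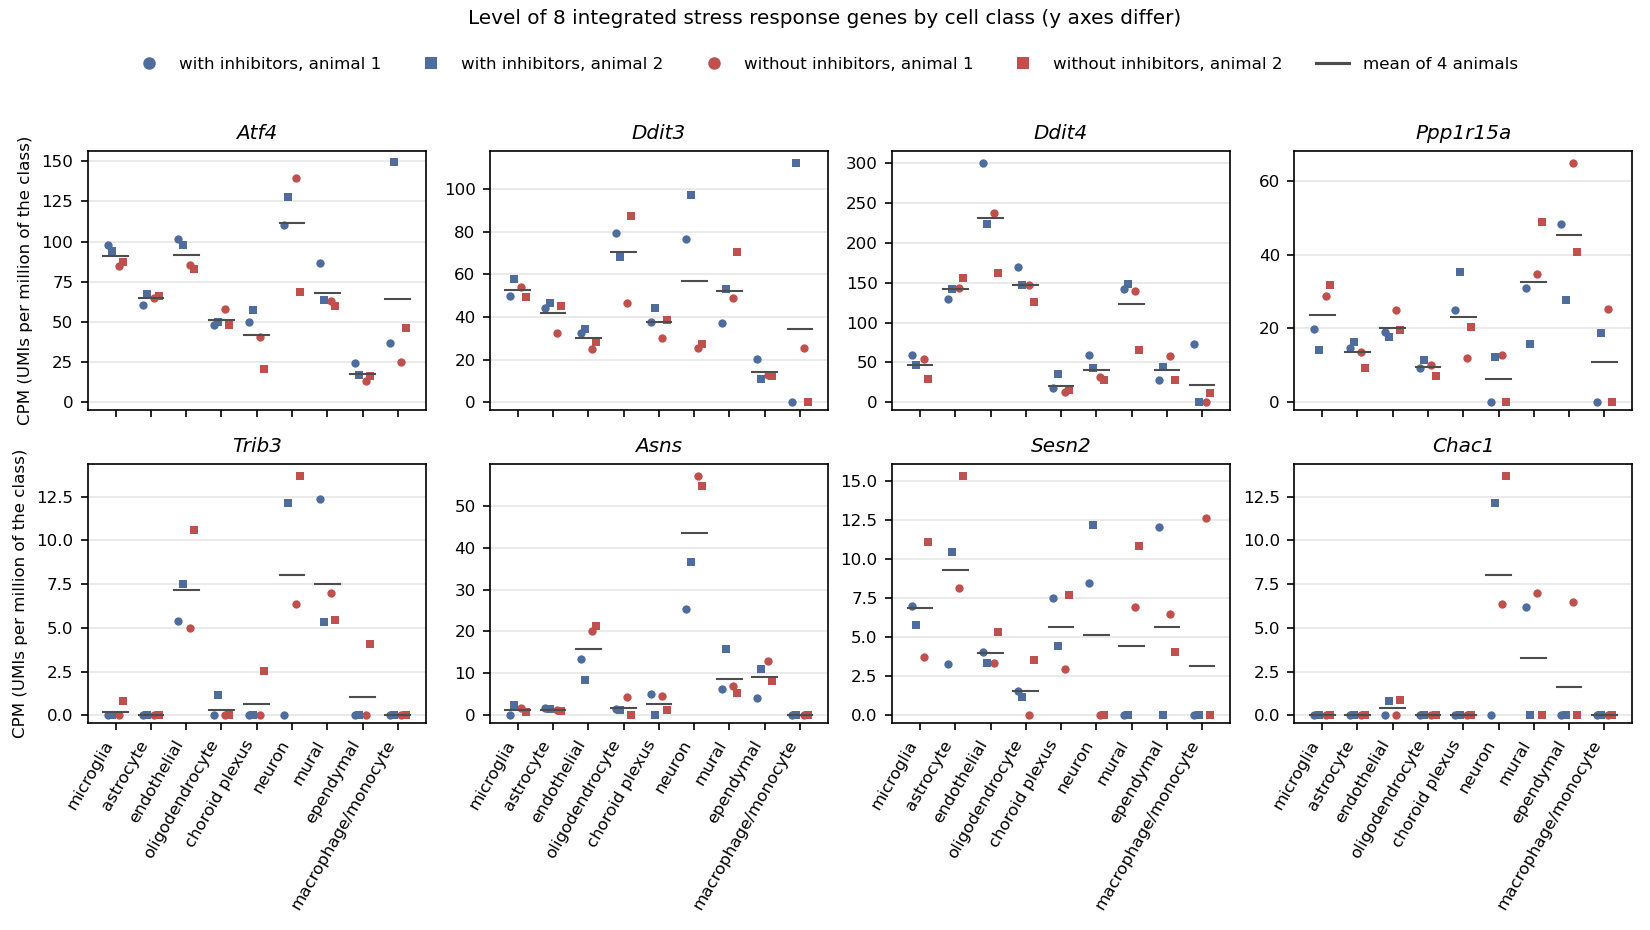
CPM (y axis, linear, a separate scale for each gene) of the 8 genes in 9 cell classes (x axis), 1 point an animal, blue with and red without inhibitors, with a grey line at the mean of 4 animals. Ddit4 stands above 160 CPM in every endothelial-like sum, and Asns is higher in every neuron-like sum than in any other class.

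At a fixed depth of 1000 UMIs a cell, few cells showed any one member. Ddit4 was found in 10.9% and 10.2% of cells with and in 9.99% and 9.07% without inhibitors. Atf4 was found in 7.88% and 7.41% with and 6.61% and 7.46% without, Ddit3 in 4.91% and 5.31% with and 3.54% and 4.11% without, and Ppp1r15a in 1.71% and 1.93% with and 1.87% and 1.78% without. Without thinning, Ddit4 was in 20.1% and 16.9% of cells with and in 17.2% and 15.4% of cells without inhibitors. By class, Ddit4 was in 25.8% and 19.3% of endothelial-like cells with and 20.5% and 14.8% without, against 0.769% to 3.41% of choroid plexus-like cells, the class of its lowest level, which gives a bound on free RNA. Median depths were 1589 to 1914 UMIs in the endothelial-like and 1340.5 to 2736 UMIs in the choroid plexus-like cells. No class is known to lack the other genes. Choroid plexus markers took 0.118% to 1.97% of the UMIs of the other 8 tested classes, and the part of free RNA in this was not tested. In the class of the lowest level, Atf4 was in 0% of ependymal-like cells (34 to 50 cells an animal, median depth 2985 to 3642.5 UMIs before thinning), Ppp1r15a in 0% of neuron-like cells (22 to 41 cells an animal) and Ddit3 in 0% to 5.88% of ependymal-like cells. The Ddit3 shares over all cells lay within that last range. These shares rest on few cells of classes not known to lack the genes, and Atf4 had 15 UMIs in ependymal-like cells before thinning. They therefore set no background level, and whether the shares of Atf4, Ppp1r15a and Ddit3 exceed one was not shown.

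Leaving out the inhibitors changed no member past the test. The test was edgeR's quasi-likelihood test on UMIs summed per animal, called at an adjusted p under 0.05 (Benjamini-Hochberg over all genes tested) with a log2 fold change over 0.58 in size. Positive values mean higher without inhibitors. Of 31 tests of a member, 7 over all cells and 24 in single classes, 0 were called, 4 had an unadjusted p under 0.05, and 11 had a positive log2 fold change. DESeq2 likewise called 0. The lowest adjusted p of any member was 0.343. Chac1 passed the filter on low counts in no comparison, and the macrophage/monocyte-like sums held too few UMIs to test any member. Calls were rare for other genes too: 0.0363% of 13758 genes over all cells, 0.0497% in astrocyte-like, 0.0363% in endothelial-like, 0% in ependymal-like, 0.703% in macrophage/monocyte-like, 0.461% in microglia-like, 0.0571% in mural-like, 0.029% in neuron-like and 0.199% in oligodendrocyte-like cells. Choroid plexus-like cells stood apart with 5.07%. Against these shares, 0 calls among the members are no result about them. The 95% intervals of the member fold changes reached from 0.246 to 1.85 on either side on the log2 scale.

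Over all cells, Atf4 stood at 69.4 and 65.3 CPM without and 74.6 and 78.1 with inhibitors, from 337 to 409 UMIs an animal. The groups did not overlap, yet the log2 fold change was only -0.10 (95% interval -0.34 to 0.15; edgeR adjusted p = 0.901). Ddit3 was 39.6 and 43.8 CPM without and 46.6 and 51.3 with inhibitors, a log2 fold change of -0.15 (edgeR adjusted p = 0.864). Ddit4 was 103 and 88.7 CPM without and 129.6 and 122 with inhibitors. Its log2 fold change was -0.31 ± 0.11 (SE, 95% interval -0.57 to -0.06; edgeR adjusted p = 0.674). The direction for all 3 was lower without inhibitors, with none past the threshold.

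The other members leaned the opposite way over all cells. Ppp1r15a was 20.6 and 19.9 CPM without and 18.8 and 17.2 with inhibitors, and Asns 7.21 and 6.09 CPM without and 4.42 and 4.96 with. Their log2 fold changes were 0.26 (edgeR adjusted p = 0.816) and 0.57 (SE 0.30, 95% interval -0.11 to 1.25; edgeR adjusted p = 0.784). Sesn2 had 20 and 54 UMIs without and 25 and 26 with inhibitors, Trib3 5 and 24 without and 7 and 14 with, and Chac1 3 and 8 without and 2 and 3 with. Replicate 2 without inhibitors alone held the high counts of Sesn2 and Trib3, whose fitted fold changes of 0.42 and 0.36 became -0.27 and -0.97 without it. Among the 7 members with at least 20 UMIs over all cells, 2 were higher and 3 lower without overlap in CPM between the groups. Of all 14811 such genes 41.3% did not overlap, 1648 of them higher and 4462 lower without inhibitors. The fit also scaled by TMM size factors, 1.04 and 1.02 with and 0.974 and 0.968 without inhibitors. With CPM divided by these factors, Ddit3 overlapped between the groups.

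In microglia-like cells, Ppp1r15a had 31 and 40 UMIs (28.8 and 31.8 CPM) without and 20 and 17 UMIs (19.9 and 14.0 CPM) with inhibitors. Both animals without inhibitors stood above both with them. The log2 fold change was 0.89 ± 0.29 (SE, 95% interval 0.30 to 1.47; edgeR adjusted p = 0.355), and DESeq2 gave 0.87 (adjusted p = 1.00). Atf4 had 84.6 and 87.3 CPM without and 97.7 and 94.1 with inhibitors, a log2 fold change of -0.13. Ddit3 (-0.05) and Ddit4 (-0.35) overlapped between the groups. Of 5 members with at least 20 UMIs here, 1 was higher and 1 lower without overlap, beside 34.5% of all genes. Erythrocyte markers, 5 of 6 of them with a UMI, took 0.0499% and 0.0754% of microglia-like UMIs without and 0.0133% and 0.0257% with inhibitors, and their part in these values was not tested.

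In endothelial-like cells, Asns had 12 and 24 UMIs (20.05 and 21.2 CPM) without and 10 and 10 UMIs (13.5 and 8.36 CPM) with inhibitors. Its log2 fold change was 1.02 ± 0.40 (SE, 95% interval 0.21 to 1.83; edgeR adjusted p = 0.813). Ddit4 had 237 and 162 CPM without and 300.0 and 223 CPM with inhibitors, so the groups overlapped. Its log2 fold change was -0.39 ± 0.16 (SE, 95% interval -0.72 to -0.07; edgeR adjusted p = 0.842). Left without replicate 1 of the animals without inhibitors, the Ddit4 value was -0.63 and passed the threshold (edgeR adjusted p = 0.00999), while over the other alternatives the adjusted p ranged from 0.452 to 1.00. That fit took its spread from the other group alone and called 57 of 9164 genes, 0.622%. Atf4 had 85.2 and 83.2 CPM without and 101 and 97.9 CPM with inhibitors (log2 fold change -0.22, edgeR adjusted p = 0.931). Ddit3 (-0.28, edgeR adjusted p = 0.944) was also lower and Ppp1r15a (0.27, edgeR adjusted p = 0.961) higher without overlap, none of them past the threshold. Of 6 members with at least 20 UMIs, 2 were higher and 2 lower without overlap, against 34.2% of all genes. Erythrocyte markers took 0.0636% and 0.0662% of these UMIs without and 0.0127% and 0.0284% with inhibitors, and their part was not tested.

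In neuron-like cells, Ddit3 had 4 and 2 UMIs (25.4 and 27.4 CPM) without and 9 and 16 UMIs (76.4 and 97.3 CPM) with inhibitors. The groups did not overlap, as for 29.2% of genes with at least 20 UMIs there, and the log2 fold change of -1.71 had a 95% interval from -3.56 to 0.14 (edgeR adjusted p = 1.00). Atf4 had a log2 fold change of -0.09 there, and Ddit4, which was not tested, had 31.7 and 27.4 CPM (5 and 2 UMIs) without and 59.4 and 42.6 CPM (7 UMIs each) with inhibitors. Asns in the same cells had 57.1 and 54.7 CPM without and 25.5 and 36.5 CPM with inhibitors, from too few UMIs to pass the filter. Oligodendrocyte markers, 8 to 10 of 10 with a UMI, took 0.0539% and 0.0725% of the neuron-like UMIs without and 0.134% and 0.0870% with inhibitors, and erythrocyte markers, 3 or 4 of 6 with a UMI, 0.0609% and 0.115% without and 0.0187% and 0.0310% with. The neuron-like class also pooled clusters of unlike numbers. A cluster with Gad1 among its top markers had 10 and 0 cells with and 24 and 2 without inhibitors. Another with Slc17a7 had 16 and 39 cells with and 31 and 13 without. The part of these markers and clusters in the neuron-like values was not tested.

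In choroid plexus-like cells, 0 members were higher and 3 of the 4 with at least 20 UMIs lower without overlap. Of all 6637 such genes 46.3% did not overlap, 1111 of them higher and 1965 lower without inhibitors. The 3 members were Atf4 (log2 fold change -0.65, edgeR adjusted p = 0.343), Ppp1r15a (-0.63, edgeR adjusted p = 0.496) and Ddit4, which was not tested. Ddit3 overlapped there (-0.05). In mural-like cells Atf4 had 62.7 and 59.7 CPM without and 86.4 and 63.7 CPM with inhibitors (-0.23, edgeR adjusted p = 0.979), and Ddit4 had 139 and 65.1 CPM without and 142 and 149 CPM with (-0.51, edgeR adjusted p = 0.953). As CPM, neither overlapped between the groups. The TMM size factors of this fit were 1.03 and 1.01 with and 0.962 and 1.00 without inhibitors. With CPM divided by these factors, both genes overlapped between the groups. Ppp1r15a, which was not tested there, was higher without overlap, at 34.8 and 48.8 CPM without and 30.9 and 15.9 CPM with inhibitors. Of 4 members with at least 20 UMIs in mural-like cells, 1 was higher and 2 lower without overlap, beside 34.1% of all genes. In replicate 1 without inhibitors, erythrocyte markers (5 of 6 with a UMI) took 4.24% and choroid plexus markers (10 of 10) 1.97% of the mural-like UMIs, against 0.0575% to 0.864% and 0.127% to 0.259% in the other 3 animals, and the part of this was not tested. In astrocyte-like cells the log2 fold changes were 0.02 for Atf4, -0.21 for Ddit3, 0.13 for Ddit4 and -0.50 for Ppp1r15a. In oligodendrocyte-like cells they were 0.09 for Atf4, -0.20 for Ddit3 and -0.22 for Ddit4, and in ependymal-like cells 0.36 for Ppp1r15a. The edgeR adjusted p-values ran from 0.711 to 1.00 in these 3 classes. Of 5 members with at least 20 UMIs in astrocyte-like cells, Ddit4 was higher and Ppp1r15a lower without overlap in CPM, beside 32.7% of all genes. With CPM divided by the TMM size factors, Ddit4 overlapped there. Of 4 such members in oligodendrocyte-like cells only Ddit4 did not overlap and was lower, beside 37.3% of all genes.

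**Figure D2:**
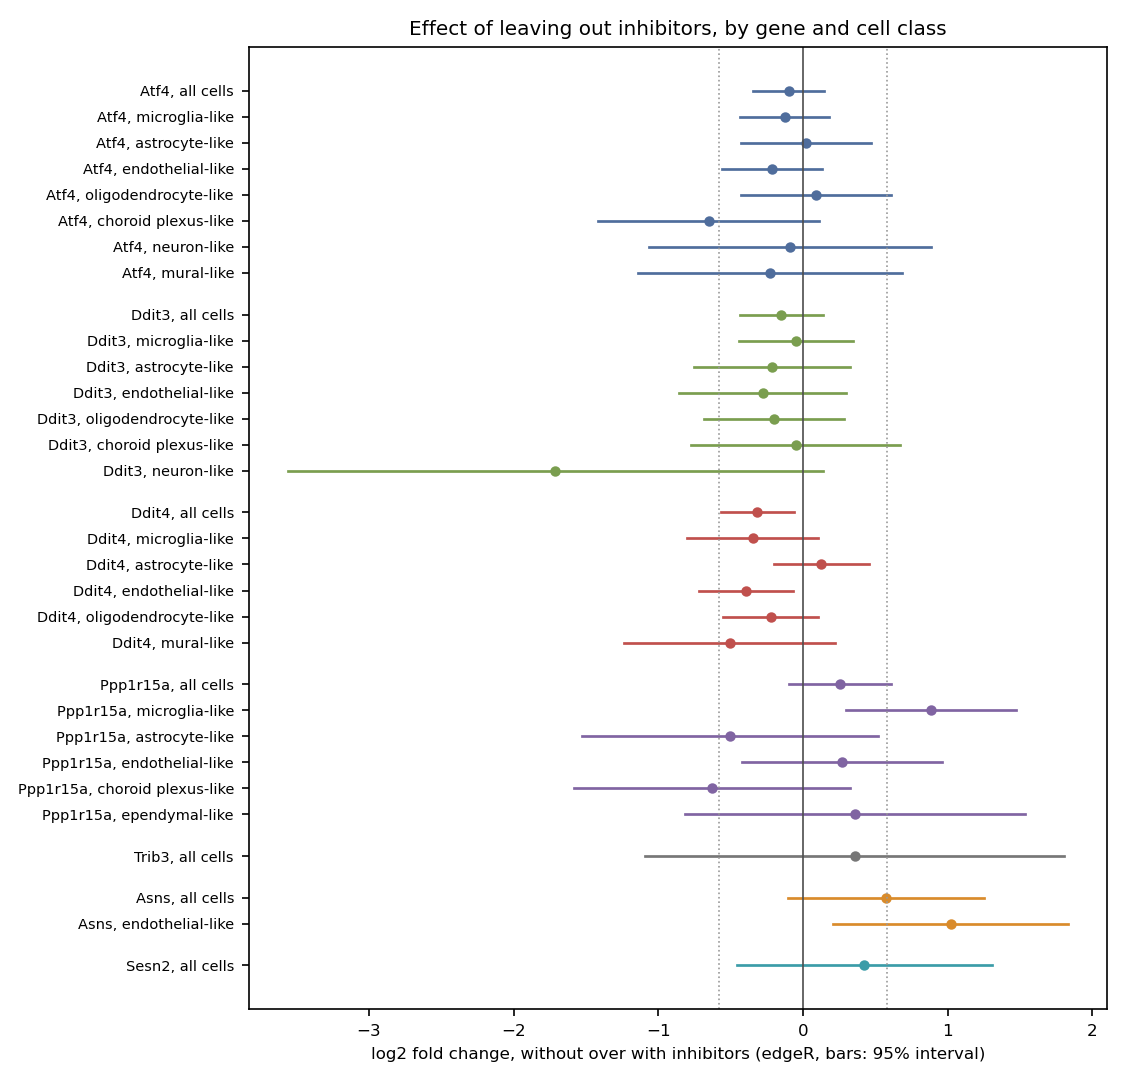
Log2 fold change without over with inhibitors (x axis) for each tested gene and class (y axis), with 95% intervals as bars and dotted lines at 0.58 on either side of 0. Only 4 of the 31 intervals leave out 0: Ddit4 over all cells and in endothelial-like cells on the low side, Ppp1r15a in microglia-like and Asns in endothelial-like cells on the high side.

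A difference of effect between classes was tested in its own right. Over all classes at once, 0.455% of 12516 genes were called and 0 of the 5 members tested, with an edgeR adjusted p of 1 for each of Atf4, Ddit3, Ddit4, Ppp1r15a and Asns. For microglia-like cells against the mean of the other classes, 0.146% of 6185 genes were called and 0 of 4 members. There the Ppp1r15a effect was 0.76 ± 0.49 (SE) log2 units larger in microglia-like cells (edgeR adjusted p = 1.00) and that of Ddit3 0.52 ± 0.32 (edgeR adjusted p = 1.00). The higher Ppp1r15a in microglia-like cells was therefore not shown to be particular to them.

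Microglia-like cells were then split by a score that uses no member. The study's consensus list of 25 dissociation-induced microglial genes was summed in each cell at 1000 UMIs, and the limit was the 99th percentile of the cells with inhibitors, 6.44 UMIs. Above it lay 267 and 248 cells without inhibitors, and 6 and 8 with them, while 371 and 492 cells without and 594 and 749 with inhibitors lay at or below. The split is a range of 1 score and not a cell type, with 44 and 48 of the cells without inhibitors within 1 UMI of the limit.

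Above the limit Ppp1r15a stood at 46.2 CPM (21 UMIs, 95% Poisson interval 28.6 to 70.6) and 60.3 CPM (25 UMIs, 39.0 to 89.1) in the 2 animals without inhibitors. At or below the limit the same animals had 14.0 CPM (8 UMIs, 6.04 to 27.6) and 18.7 CPM (14 UMIs, 10.2 to 31.4). Cells at or below the limit from the animals with inhibitors had 18.4 and 16.2 CPM, 17 UMIs each. The counting intervals at or below the limit overlapped with and without inhibitors, and they cover counting error only. Ppp1r15a was 1 of 4 members compared that was at least 2-fold higher above the limit in both animals, as were 0.762% of 8005 genes with a mean of at least 10 CPM. With 2 animals no test of this split was made.

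The other 3 members differed less between the parts. Atf4 was 83.6 and 91.7 CPM above against 84.0 and 85.6 CPM at or below the limit. Ddit3 was higher above it in both animals, at 61.6 and 57.9 against 47.3 and 45.5 CPM, and Ddit4 was lower in both, at 39.6 and 21.7 against 68.3 and 30.8 CPM. Within each animal without inhibitors, the counting intervals of each overlapped above and below the limit, which does not show that they were alike. Cells above the limit were slightly deeper, with median UMIs of 1588 and 1602 against 1484 and 1459, and the part of this depth was not tested.

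**Figure D3:**
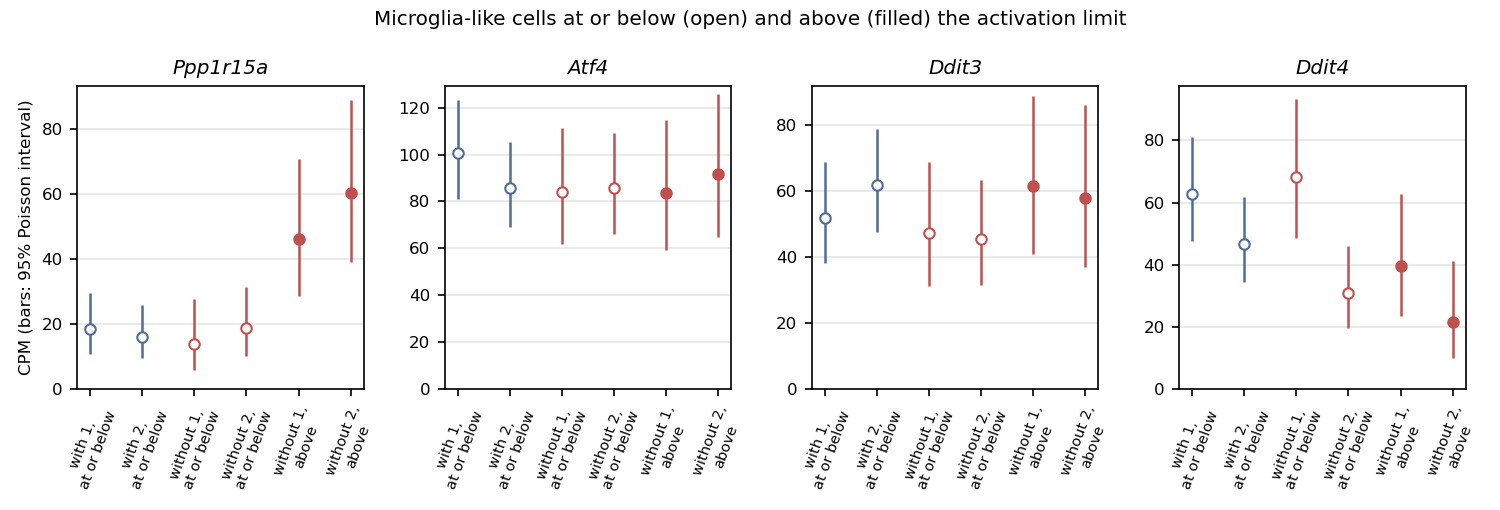
CPM (y axis, linear, a separate scale for each gene) of 4 genes in microglia-like cells of each animal (x axis), open at or below and filled above the activation limit, blue with and red without inhibitors, bars the 95% Poisson interval. The filled Ppp1r15a points, 46.2 and 60.3 CPM, lie above the 4 open ones. The interval of the lower filled point, 28.6 to 70.6 CPM, still reaches open intervals of other animals. Within each animal without inhibitors, the intervals of Atf4, Ddit3 and Ddit4 overlap between filled and open points.

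The rest of the pathway was read from 3 lists. The first held 18 genes of the eIF2 kinases and eIF2 machinery, the second 46 other ATF4 and CHOP targets such as amino acid transporters and tRNA synthetases, and the third 20 genes of the endoplasmic reticulum unfolded protein response. Over all cells 0 genes of any list were called, with median log2 fold changes of -0.01, 0.06 and 0.22, against -0.01 over all genes and 0.26 over the 7 members tested. At an unadjusted p under 0.05, 0, 3 and 1 list genes and 925 of all genes stood over all cells. The most abundant of each list were close to 0 or short of the threshold: Eif2s2, an eIF2 subunit (0.10, edgeR adjusted p = 0.882), and Dnajc3, which encodes the PKR inhibitor and chaperone p58IPK (-0.01, 0.994). Of the targets they were the amino acid transporter genes Slc38a2 (-0.37, edgeR adjusted p = 0.591) and Slc3a2 (0.14, 0.871), and of the third list the chaperone genes Calr (0.15, edgeR adjusted p = 0.860) and Hsp90b1 (0.24, 0.750).

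Within classes, 2 lists had a single called gene. In microglia-like cells Atf3, a stress-induced transcription factor, rose from 15 and 16 UMIs with inhibitors to 114 and 87 UMIs without, a log2 fold change of 2.64 ± 0.25 (SE, edgeR adjusted p = 2.0e-12), while the 30 genes of its list tested had a median of 0.03. Atf3 is also on the study's 2 activation lists, 1 of them chosen on these samples, so its direction is not independent evidence. In choroid plexus-like cells Dnajc3 had 24 and 23 UMIs with and 67 and 108 UMIs without inhibitors. The class sums were 398505 and 226643 UMIs with and 667782 and 781223 without. The raw counts thus overstate the rise, and as shares of these sums the groups overlapped. Its log2 fold change was 0.83 (edgeR adjusted p = 0.0362). That call was lost with DESeq2 and without replicate 1 of the inhibitor group or replicate 2 of the other.

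Of the 20 unfolded protein response genes, 10 rose in choroid plexus-like cells, the epithelium that secretes cerebrospinal fluid. There 15 were tested, 10 were called higher without inhibitors, 0 lower, and all 15 log2 fold changes were positive, with a median of 0.84 against -0.01 over all 4655 genes, of which 195 were called higher and 41 lower. Pdia6, a protein disulfide isomerase, was at 178 and 232 CPM without and 90.3 and 70.6 with inhibitors, a log2 fold change of 1.48 ± 0.21 (SE, edgeR adjusted p = 1.4e-05). Calr, a calcium-binding chaperone, was at 469 and 522 CPM without and 248 and 251 with inhibitors (1.16 ± 0.13, edgeR adjusted p = 4.6e-07). Dnajb11 and Pdia4, a BiP cochaperone and another isomerase, rose by 1.12 (edgeR adjusted p = 0.0132) and 1.03 (edgeR adjusted p = 0.00589). DESeq2 called 6 of the list, and leaving out single animals gave 7 to 13. In the same cells the 3 members tested had values below 0.

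Other measures moved with the groups in choroid plexus-like cells. Their median depth was 2736 and 2378 UMIs without and 1931 and 1340.5 with inhibitors. The 10 choroid plexus markers, all with UMIs in every animal, took 35.8% and 27.9% of the UMIs without and 22.5% and 21.5% with inhibitors. Erythrocyte markers, 4 of 6 with a UMI, took 0.0377% and 0.0531% against 0.0158% and 0.0260%. The class also pooled clusters of unlike depth. A cluster of 45 cells with Slc4a5 among its top markers had 7 and 4 cells with and 13 and 21 without inhibitors. Its median was 11962 UMIs a cell, with 13.7% mitochondrial UMIs. The largest cluster of the class had 86 and 93 cells with and 99 and 108 without inhibitors, at a median of 1387.5 UMIs. The part of all these in the unfolded protein response values was not tested. In the other 8 classes 0 genes of that list were called, with medians from -0.10 in neuron-like to 0.24 in oligodendrocyte-like cells.

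**Figure D4:**
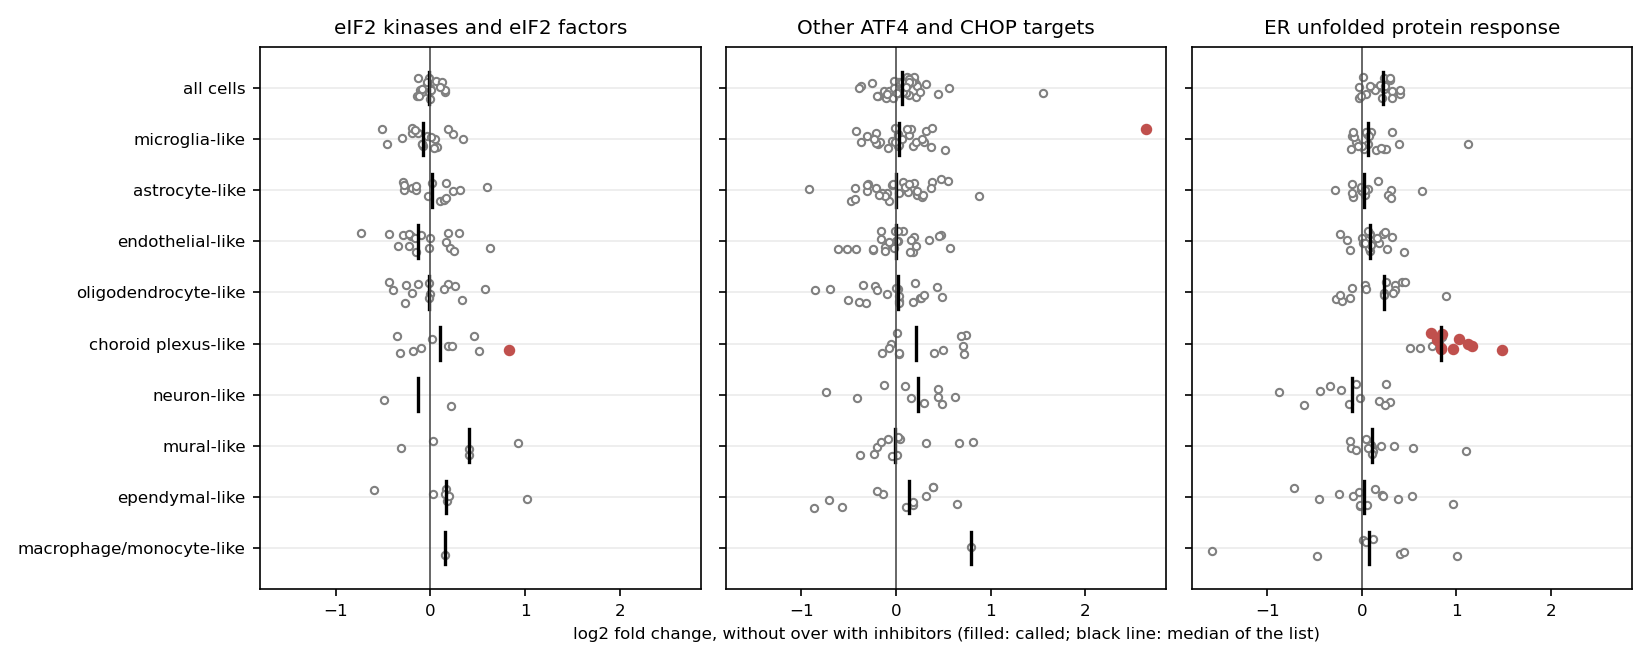
Log2 fold change without over with inhibitors (x axis) of each tested gene of 3 pathway lists (panels) in all cells and 9 classes (y axis), filled where called, with a black line at the median of the list. The filled points are Atf3 in microglia-like cells, Dnajc3 in choroid plexus-like cells and 10 unfolded protein response genes in choroid plexus-like cells.

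Across the 36 sums of 9 classes and 4 animals, the genes of most similar pattern were found for the 4 members with a mean of at least 10 CPM, by the Pearson correlation of log2 CPM among 10538 genes. For Ddit4 they were Mast4 (r = 0.84), Plekhg1 (r = 0.84) and Tmc7 (r = 0.82). For Ppp1r15a they were Gnai3 (r = 0.80), Dnajc3 (r = 0.73) and Tsen34 (r = 0.72). For Atf4 they were Marf1 (r = 0.77), Osbpl8 (r = 0.75) and Tbc1d24 (r = 0.75), and for Ddit3 Wsb2 (r = 0.77), Spag7 (r = 0.76) and Zfp410 (r = 0.73). These values describe 36 points that share libraries, depth and classes, and no other member was among the 3 closest genes of any.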

How the data were processed

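Libraries were made with 10x Chromium 3′ chemistry, 1 per animal and 2 animals per group, and the authors counted UMIs per gene and barcode with Cell Ranger 3.0.0 on mm10, so the deposited values are raw counts. No data column of another series was present. Barcodes with at least 400 genes and at most 20% mitochondrial UMIs were kept (10067), 206 simulated-neighbour doublets (2.05%) were removed, and cells were clustered with leidenalg 0.10.2 at resolution 1 (2000 variable genes, 30 components) into 40 clusters. A cluster was named from at least 3 markers of a class. It stayed unnamed where its top 10 genes held more markers of another class. Counts were summed per animal and class, for classes with at least 20 cells in every animal, and compared by the robust quasi-likelihood test of edgeR 4.0.16 (R 4.3.3), after its filterByExpr and TMM steps, with the group as the only term. The study used DESeq2 on sums over all cells of an animal, and DESeq2 1.42.0 was the alternative. The difference between classes was fitted over all class sums with the animal as a block. The rest was computed with Python 3.11.15, numpy 2.4.6 and pandas 2.3.3.

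Members and gene lists were chosen with earlier results of these data known. Every member tested was named in its comparison. From each list, called genes were named, at most the 4 with the largest log2 fold change, and, where no list gene was called over all cells, the 2 of the highest mean CPM. All 8 members and all genes of the 3 lists were found by symbol. Libraries of a group differed by more than sampling noise (chi-square per degree of freedom 5.87 and 4.57), so none was counted as a repeat. An exact permutation test of 2 against 2 animals cannot go below p = 0.333, so none is given. On simulated counts over all cells, edgeR called 84 of 100 genes changed by 1 log2 unit among 13785 tested, and DESeq2 56 of 100. False calls were 8 and 0. Changed genes had over 100 UMIs and 1 shared dispersion, while many member sums by class held fewer UMIs. In the real data over all cells, edgeR called Zfp36 (2.08) and Junb (2.05). It did not call Fos (5.38, edgeR adjusted p = 0.0518), Hspa1a (2.35, 0.0518), Atf3 (1.55, 0.150) or Dusp1 (0.72, 0.127). The simulation thus does not give the power of the member tests. Alternatives were other size factors, low-count filters, DESeq2, cell filters, no doublet removal, a finer clustering, a replicate block and leaving out each animal. The count of genes whose groups do not overlap, the share of genes 2-fold higher above the activation limit, and the fit without a cluster of 28 microglia-like cells, 22 of them from 1 library, were chosen after seeing the data.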

Additional observations from a re-analysis of the deposited data

Results flagged for a closer look

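Ppp1r15a was flagged because its groups did not overlap in a set of barcodes that the comparisons leave out. The share of all genes that do so in these barcodes was not counted. In barcodes over the mitochondrial limit it was at 21.6 and 17.9 CPM (7 and 6 UMIs) without inhibitors, a mean of 19.7 CPM, above 16.1 and 13.6 CPM (4 and 5 UMIs) with inhibitors. The values rest on few UMIs and no test was made. In the other barcodes left out, those with few genes and a mitochondrial share within the limit, the order was the reverse: 1.75 and 4.56 CPM (1 and 4 UMIs) without and 11.5 and 6.66 CPM (3 UMIs each) with inhibitors.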

How the results depend on the processing

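Members called stayed at 0 in every comparison in all 86 alternative values that kept every animal. Leaving out single animals gave 0 to 1 in endothelial-like cells, the 1 being Ddit4. Where 1 animal of a group was left, it was assumed to vary like the other group. No log2 fold change of a member turned its sign in the 245 alternative values with every animal, and 13 of 123 did when an animal was left out. Their lowest and highest values were -0.97 to 0.97 for Trib3 and -0.27 to 0.86 for Sesn2 over all cells, -0.84 to 0.0605 for Ddit4 and -0.15 to 0.0844 for Ddit3 in microglia-like cells, -0.0671 to 0.13 for Atf4 in astrocyte-like, -0.19 to 0.0535 for Ddit3 in choroid plexus-like, -1.12 to 0.0123 for Ddit4 in mural-like and -0.85 to 0.26 for Atf4 in neuron-like cells, and -0.68 to 0.23 for Ddit3 and -0.0514 to 0.21 for Atf4 in oligodendrocyte-like cells. Ppp1r15a in microglia-like cells ranged from 0.64 to 1.13, with an adjusted p from 0.219 to 1.00 over all its alternatives.

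Called list genes moved as follows, and the cause was not tested. In choroid plexus-like cells DESeq2 called 6 unfolded protein response genes and 0 of the eIF2 machinery, and leaving out animals gave 7 to 13 and 0 to 1. Over all cells 1 of the other ATF4 and CHOP targets was called with no filter, with DESeq2 and with the replicate block, and 0 to 1 without an animal. With no filter 1 was called in ependymal-like cells. Leaving out animals gave 0 to 1 of the targets in macrophage/monocyte-like and oligodendrocyte-like cells, and 0 to 1 unfolded protein response genes over all cells and in ependymal-like cells. The mean share of cells with a UMI was 3.87% for Atf4, 2.19% for Ddit3, 5.01% for Ddit4 and 0.865% for Ppp1r15a at 500 UMIs a cell, and 13.3%, 8.61%, 17.4% and 3.76% with no thinning.

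Calls over all genes ranged more widely. Over all cells 5 became 174 with no filter and 57 with the replicate block, and 3 to 155 without an animal. Choroid plexus-like cells gave 73 to 286 with every animal, endothelial-like 0 to 13, ependymal-like 0 to 6, macrophage/monocyte-like 0 to 12, mural-like 1 to 8, oligodendrocyte-like 4 to 35 and microglia-like 30 to 56. The labels tie same-numbered animals by the number alone, and the correlation of their deviations over 13758 genes was 0.071, so no pairing was assumed, although olfactory ensheathing-like cells came from replicate 1 of both groups (32 and 29 cells). Depth limited Trib3, Sesn2, Chac1 and most values in neuron-like cells.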
